A study of Mus musculus with 12 samples.

Results

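The genes described here are 50 genes that copy DNA or make the deoxynucleotides for it, read in microglia sorted from mouse brains after sham surgery or stroke. They are listed by name and function: 19 genes of origin licensing and helicase loading, 19 of the polymerases and the sliding clamp, 5 of nucleotide supply and 7 of replication-coupled chromatin maintenance. All 50 were found by symbol among the 55401 gene identifiers counted in each library, and all 50 were among the 16451 genes that passed the filter on low counts.

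Bulk RNA was sequenced from microglia of male mice, sorted as CD45int CD11b+ cells on day 3 after surgery, with 3 libraries in each of 4 groups. WT-Sham and WT-tFCI mice were CX3CR1wt/wt:HDAC3loxp/loxp, and miKO-Sham and miKO-tFCI mice were CX3CR1CreER/wt:HDAC3loxp/loxp, so that the floxed Hdac3 alleles are carried by every group and the miKO mice alone also carry CreER in place of 1 copy of Cx3cr1. Per the study's methods, knockout was induced with tamoxifen over 5 days at an age of 6 to 8 weeks, and surgery followed at least 1 month later. Transient focal cerebral ischemia (tFCI), a stroke model, was a 60 min occlusion of the middle cerebral artery, and Sham mice had the same anaesthesia and exposure of the artery with no occlusion. Cx3cr1 also drives Cre in other macrophages of the brain and in blood monocytes. The study set the gap before surgery so that blood monocytes would be nearly all replaced by cells with Hdac3. By qPCR it found Hdac3 unchanged in infiltrated macrophages sorted after tFCI. Each library pooled 3 to 4 hemispheres. The effect of the CreER allele itself cannot be told apart from that of the Hdac3 knockout.

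DNA replication is prepared when the origin recognition complex, Cdc6 and Cdt1 load the Mcm2 to Mcm7 helicase on DNA, and it starts when Cdc45 and the GINS complex join that helicase. Primase and the polymerases then copy both strands, the Rfc loader places the Pcna clamp, and ribonucleotide reductase, thymidylate synthase and thymidine kinase supply deoxynucleotides. Most of these genes are known to be switched on before S phase by E2F transcription factors, whereas genes of mitosis come on later through another promoter element, the CHR. Adult microglia divide rarely and are known to proliferate after brain injury.

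The promoters are shown because the genes are read as a group whose members are known for such sites. RefSeq windows on GRCm38.p6, from 250 bases before to 50 bases after an annotated start, were at hand for 41 of the 50 genes, and 9 had none. The letters TTTCCCGC, TTTCGCGC, TTTGCCGC and TTTGGCGC, searched on both strands as E2F letters, were in the windows of 16 of the 41 genes (39.0%), against 497 of 11011 tested genes with a window (4.51%) and 704 of all 27025 genes with a window (2.6%). By step they were in 8 of 14 licensing genes, in 5 of 16 polymerase and clamp genes, in 0 of 5 nucleotide supply genes and in 3 of 6 chromatin maintenance genes. The CHR letters TTTGAA and TTCGAA were in 10 of the 41 (24.4%) and in 16.7% of the tested genes, and in 22 of 29 mitotic genes with a window (75.9%), of which 3 had E2F letters (10.3%). Of the genes that rose after tFCI in WT mice, 13 of 33 with a window had E2F letters (39.4%), and of those that did not pass that test 3 of 8 (37.5%). A match of letters is a description and not a bound site, and a window without them says nothing about the factor. The lines that follow give the 250 bases before the RefSeq start, 5′ to 3′ on the gene's strand, in lower case with E2F letters of either strand in capitals. Mcm6 (chr1:128359706-128359955, minus strand) and Mcm5 (chr8:75109259-75109508, plus strand) are helicase genes picked after the matches were seen, because each holds more than 1 match and all lie before the start, and in each the first 2 matches overlap and run in opposite directions. Tk1 (chr11:117826015-117826264, minus strand), Lig1 (chr7:13278576-13278825, plus strand) and Tyms (chr5:30073626-30073875, minus strand) had the smallest p between the genotypes after tFCI, and Orc6 (chr8:85299382-85299631, plus strand) the largest. The locus of Tk1 in GENCODE M21, given further on, starts upstream of this RefSeq start, so part of the bases printed for Tk1 lies inside that locus. Lig1 has 3 annotated starts, and its single match lies in the window shown but begins 26 bases after that start, outside the bases printed.
Mcm6: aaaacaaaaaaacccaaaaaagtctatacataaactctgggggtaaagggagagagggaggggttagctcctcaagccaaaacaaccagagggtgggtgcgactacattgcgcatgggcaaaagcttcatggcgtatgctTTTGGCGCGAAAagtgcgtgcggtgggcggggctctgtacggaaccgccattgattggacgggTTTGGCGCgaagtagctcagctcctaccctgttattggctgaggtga
Mcm5: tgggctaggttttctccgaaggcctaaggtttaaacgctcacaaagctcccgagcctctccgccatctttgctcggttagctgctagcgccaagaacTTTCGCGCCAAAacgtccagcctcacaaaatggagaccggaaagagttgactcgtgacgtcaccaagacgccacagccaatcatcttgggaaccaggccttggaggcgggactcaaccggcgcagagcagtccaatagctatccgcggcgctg
Tk1: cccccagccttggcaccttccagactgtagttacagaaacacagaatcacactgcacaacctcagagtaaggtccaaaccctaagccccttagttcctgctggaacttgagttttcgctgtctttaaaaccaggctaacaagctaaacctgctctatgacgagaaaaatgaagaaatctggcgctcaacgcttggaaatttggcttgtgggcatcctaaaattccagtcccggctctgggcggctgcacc
Lig1: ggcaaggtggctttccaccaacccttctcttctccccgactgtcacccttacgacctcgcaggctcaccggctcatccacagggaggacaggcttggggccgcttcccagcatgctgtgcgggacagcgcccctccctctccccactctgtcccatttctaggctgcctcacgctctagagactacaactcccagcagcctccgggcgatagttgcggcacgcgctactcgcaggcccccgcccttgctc
Tyms: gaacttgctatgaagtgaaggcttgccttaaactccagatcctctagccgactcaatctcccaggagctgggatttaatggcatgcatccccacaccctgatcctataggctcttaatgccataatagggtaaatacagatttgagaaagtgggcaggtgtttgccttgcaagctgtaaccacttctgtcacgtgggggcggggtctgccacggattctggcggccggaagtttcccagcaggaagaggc
Orc6: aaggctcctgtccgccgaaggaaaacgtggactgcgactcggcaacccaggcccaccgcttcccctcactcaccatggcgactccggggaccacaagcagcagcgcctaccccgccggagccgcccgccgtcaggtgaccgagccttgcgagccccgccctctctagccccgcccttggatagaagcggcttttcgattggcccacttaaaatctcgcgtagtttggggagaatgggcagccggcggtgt

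Libraries held 7697864 to 9452222 counts on genes, and values are given as CPM, counts scaled to a common library size after TMM scaling, where 1 count is worth 0.103 to 0.139 CPM. Of the 50 genes, 42 had at least 10 counts in every library, and the other 8 had fewer in some Sham library but at least 10 in every tFCI library. A gene was called when its adjusted p in edgeR's quasi-likelihood test was under 0.05 and its absolute log2 fold change above 0.58. The targeted gene, Hdac3, was at 35.0, 44.0 and 46.4 CPM in WT-Sham and at 25.8, 25.0 and 20.9 CPM in miKO-Sham, and at 54.0, 52.9 and 43.9 CPM in the WT-tFCI libraries against 36.0, 27.1 and 28.9 CPM in miKO-tFCI. Both differences were called (log2 fold change -0.81 ± 0.16 SE in Sham and -0.71 ± 0.16 SE in tFCI, edgeR adjusted p = 0.00281 and 0.0127). Counts of Hdac3 were thus lower in miKO but present in every miKO library. All 10 defining microglial markers fixed for the check were detected, and their summed level was 29280 to 38680 CPM in WT-Sham, 27250 to 32300 in miKO-Sham, 20940 to 23280 in WT-tFCI and 10480 to 20270 in miKO-tFCI. Replicate 1 of every group is batch 1 in the labels and replicates 2 and 3 are batch 2, and batch was a term of the fit. By a chi-square on gene counts, miKO-Sham replicates 1 and 2, of different batches, were the closest of all pairs within groups (2.82 per degree of freedom), while replicates 2 and 3 of the same batch were at 40.8 and the other pairs of a group across batches at 19.2 to 76.6. The pair differed by more than sampling noise and was kept as 2 samples. Values of 3 libraries are given in the order of replicates 1, 2 and 3.

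To ask how stroke changed replication genes in microglia with Hdac3, WT-tFCI was compared with WT-Sham. Of the 50 genes, 40 rose and 0 fell. Of all genes tested 32.6% were called, made up of 20.9% of all genes higher and 11.7% lower. At an unadjusted p under 0.05 there were 45 of 50, against 47.6% of all genes, and on the adjusted p alone 44 rose, against 23.5%. The median log2 fold change was 1.78 (3.44-fold), against 0.02 over all genes tested, and it was 1.63 in batch 1 and 1.79 in batch 2. In CPM, all 3 WT-tFCI libraries lay above all 3 WT-Sham libraries for 46 of the 50, which held for 26.9% of all genes. The summed level of the 50 genes was 818.8, 813.5 and 801.2 CPM in WT-Sham and 1855, 2318 and 2216 CPM in WT-tFCI, so that the groups did not overlap. In these libraries the microglial markers moved too, with 7 of 10 called lower, and among other cell types 4 of 9 tested monocyte and macrophage markers, 2 of 7 border-associated macrophage, 2 of 6 tested dendritic cell, 5 of 7 endothelial, 4 of 7 astrocyte and 3 of 5 tested oligodendrocyte markers were called higher, with 1 astrocyte and 1 oligodendrocyte marker lower. Of 4 tested neuron markers 1 was called higher. Of 4 tested T cell and 4 tested B cell markers 1 each was called lower. The B cell sum was 428 to 529 CPM in WT-Sham and 269 to 338 CPM in WT-tFCI. The monocyte and macrophage sum was 12.7 to 94.2 CPM in WT-Sham and 365 to 656 CPM in WT-tFCI, the endothelial sum 22.3 to 30.7 and 62.6 to 176 CPM, and the astrocyte sum 181 to 193 and 169 to 280 CPM. The part of those cells in the replication genes was not tested, and in bulk RNA more cells in cycle and more RNA per cell cannot be told apart.

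**Figure D1:**
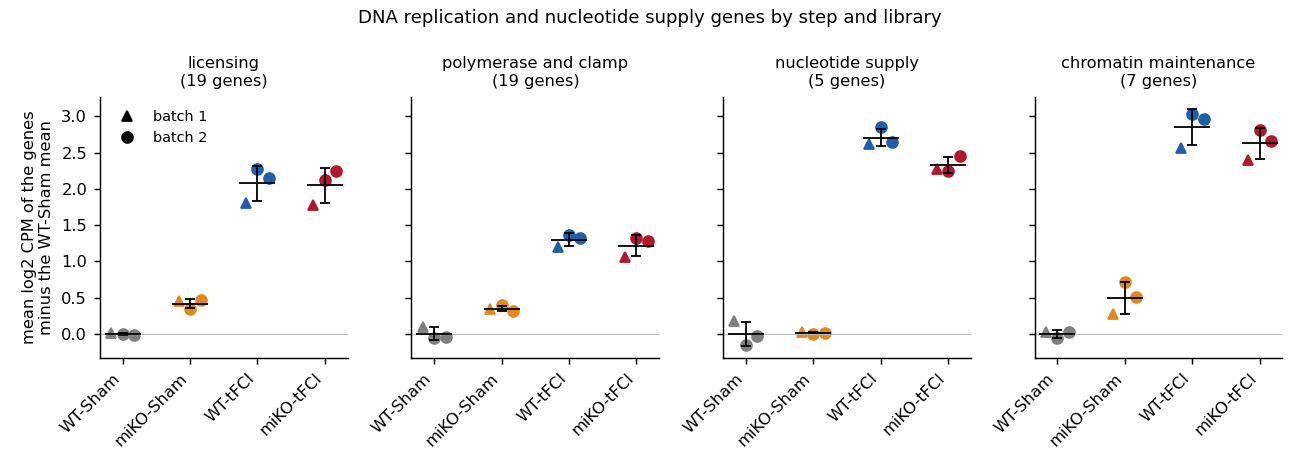
Mean log2 CPM of the genes of each step in each library, relative to the WT-Sham mean, with triangles for batch 1, circles for batch 2 and bars for the group mean ± SD of 3 libraries. Every tFCI library lies above every Sham library in all 4 steps, with group means of 2.08 (WT-tFCI) and 2.05 (miKO-tFCI) in licensing and of 2.71 and 2.33 in nucleotide supply.

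Licensing and helicase genes rose in 16 of 19 cases, with a median log2 fold change of 1.92. The helicase subunits Mcm2 to Mcm7 all rose, by log2 fold changes of 1.32 to 3.32. Mcm5, the subunit with the smallest p of this step, went from 12.3, 9.41 and 10.3 CPM in WT-Sham to 86.9, 129.2 and 103.8 CPM in WT-tFCI, a 9.95-fold rise (log2 fold change 3.32 ± 0.21 SE, edgeR adjusted p = 3.68e-08). Mcm3, which had the highest level per kilobase of exon in this step over all libraries (Gins4 was higher in both Sham groups), started at 40.3, 57.7 and 55.6 CPM, and reached 94.6, 141.7 and 149.7 CPM (2.5-fold). Per kilobase of exon, mean levels were 13.6 CPM for Mcm3 and 2.67 CPM for Mcm5 in WT-Sham, and 34.3 and 26.7 CPM in WT-tFCI. The 6 subunits, which work in equal numbers in the loaded helicase, were thus at unlike mRNA levels in Sham.

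Cdc6, the loader of the helicase, was nearly absent in WT-Sham (0.24, 0.112 and 0.616 CPM, from 2, 1 and 6 counts) and stood at 8.26, 12.6 and 9.5 CPM in WT-tFCI, with a fitted log2 fold change of 4.88 ± 0.53 SE that rests on these few counts. Its partner Cdt1 went from 8.17, 8.29 and 8.31 CPM to 23.9, 32.5 and 38.0 CPM (3.77-fold). Geminin (Gmnn), the inhibitor of Cdt1, rose 4.77-fold in the same libraries. Cdc45, which joins the helicase when origins fire, rose 11.1-fold, and the kinase pair that triggers firing, Cdc7 and its activator Dbf4, rose 2.21-fold and 3.74-fold. The call of Cdc7 was lost without WT-Sham replicate 3 (edgeR adjusted p = 0.0521). The GINS subunits, which form a complex with a single copy of each, did not move alike. Gins1 rose 4.46-fold and Gins2 2.0-fold, while Gins3 and Gins4 were at log2 fold changes of 0.04 ± 0.38 SE and 0.32 ± 0.16 SE and were not called. For Gins2, 67.3% of its exon bases overlap the gene Gse1 on the other strand, and reads of the pair cannot be told apart without strand. Orc1, the other licensing gene not called, was at a log2 fold change of 1.27 ± 0.49 SE (edgeR adjusted p = 0.054).

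In the polymerase and clamp step 13 of 19 genes rose, with a median log2 fold change of 0.99. Pcna, the clamp and the most abundant of them per kilobase, was already at 72.0, 81.2 and 75.0 CPM in WT-Sham and went to 142.2, 163.7 and 151.8 CPM in WT-tFCI, a 2.0-fold rise (log2 fold change 1.0 ± 0.15 SE, edgeR adjusted p = 0.00013). Lig1, the ligase that seals Okazaki fragments, had the smallest p of this step and went from 8.65, 7.51 and 6.77 CPM to 47.3, 53.7 and 56.5 CPM (6.85-fold). Fen1, the nuclease that trims those fragments, went from 9.74, 13.6 and 14.1 CPM to 34.4, 46.6 and 49.6 CPM (3.49-fold). No library of either group lay within the range of the other for these 3 genes. Exons of Fen1 share 84.2% of their bases with Tmem258 and Gm10143 on the other strand.

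Subunits of the same complex differed in this step. Of the primase pair, the catalytic Prim1 rose 9.4-fold, from 2.28, 2.58 and 1.64 CPM to 15.3, 24.0 and 22.7 CPM, whereas Prim2 was at 12.3, 12.3 and 11.0 CPM in WT-Sham and 12.8, 13.6 and 15.7 CPM in WT-tFCI (log2 fold change 0.24 ± 0.2 SE, not called). Of polymerase alpha, Pola1 rose 4.46-fold, from 5.05, 2.46 and 4.0 CPM to 16.4, 20.1 and 15.5 CPM, and Pola2 was at a log2 fold change of 0.57 ± 0.2 SE, just under the size asked for. Of the clamp loader Rfc1 to Rfc5, 3 of 5 rose, and all 5 were between 0.39 and 1.3. Rfc4 went from 7.33, 9.64 and 9.13 CPM to 19.7, 26.8 and 17.5 CPM. Rfc2, the highest of the loader per kilobase, went from 171.5, 166.5 and 157.3 CPM to 238.8, 275.6 and 259.6 CPM (log2 fold change 0.64 ± 0.14 SE), a call that was lost without WT-Sham replicate 2, without WT-Sham replicate 3 or without WT-tFCI replicate 2, when the log2 fold change was 0.58, 0.54 and 0.56. Rpa1 and Rpa2 of the single-strand binding complex rose 1.78-fold and 1.96-fold, and Rpa3 was at a log2 fold change of 0.49 ± 0.27 SE.

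All 5 nucleotide supply genes rose, with a median log2 fold change of 2.63. Rrm2, the inducible subunit of ribonucleotide reductase, was at 2.28, 1.57 and 2.05 CPM in WT-Sham and at 42.6, 53.8 and 53.4 CPM in WT-tFCI, a 25.2-fold rise (log2 fold change 4.65 ± 0.27 SE, edgeR adjusted p = 1.38e-08). The larger subunit Rrm1 rose 4.21-fold from a mean of 21.1 ± 2.45 CPM (SD, n = 3). Tk1, thymidine kinase of the salvage route, went from 15.6, 7.95 and 8.62 CPM to 61.6, 75.6 and 57.4 CPM (6.18-fold). Tyms, which makes thymidylate anew, rose 3.39-fold, and Dut, which removes dUTP, rose 6.53-fold.

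Of the 7 chromatin maintenance genes 6 rose, with a median log2 fold change of 3.64. Chaf1b, a subunit of the CAF-1 histone chaperone and the gene with the smallest p in this step, was at 0.361, 1.12 and 0.718 CPM in WT-Sham and 12.4, 20.5 and 17.9 CPM in WT-tFCI (22.9-fold, log2 fold change 4.52 ± 0.3 SE, edgeR adjusted p = 5.28e-08). Its partner Chaf1a, at a mean of 45.2 ± 8.45 CPM (SD, n = 3) in WT-Sham, was at a log2 fold change of 0.45 ± 0.15 SE and was not called, and 52.5% of its exon bases overlap Ubxn6 on the other strand. Uhrf1, which brings the maintenance methylase Dnmt1 to new DNA, rose 32.6-fold, and Dnmt1 itself 2.02-fold. The fork protection genes Tipin, Timeless and Clspn rose as well. Tipin, the most abundant of this step per kilobase, went from 7.81, 16.4 and 16.3 CPM to 25.0, 39.5 and 39.1 CPM (2.6-fold), with no overlap between the groups.

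The same comparison in miKO mice, miKO-tFCI against miKO-Sham, shares no library with the first. There 39 of the 50 genes rose and 0 fell. Of all genes tested 35.8% were called, made up of 21.9% of all genes higher and 13.9% lower. There were 41 of 50 at an unadjusted p under 0.05, against 50.2% of all genes, and 41 rose on the adjusted p alone, against 24.5%. The median log2 fold change was 1.37 (2.58-fold), against 0.03 over all genes, with 1.2 in batch 1 and 1.45 in batch 2. By step the medians were 1.68 for licensing, 0.81 for polymerase and clamp, 2.01 for nucleotide supply and 2.79 for chromatin maintenance, and all 5 nucleotide supply genes rose again. In all, 36 genes rose in both genotypes. The genes called in WT alone were Gins1, Gins2, Rfc2 and Pole2, those called in miKO alone were Orc1, Rfc3 and Prim2, and 7 were called in neither (Gins3, Gins4, Rfc1, Pola2, Pold2, Rpa3 and Chaf1a). In WT the call of Pole2 was lost without WT-Sham replicate 2 or WT-tFCI replicate 1 or 2 and in batch 2 alone (edgeR adjusted p up to 0.104). In miKO that of Mcm3 was lost without miKO-tFCI replicate 3, that of Rfc3 without miKO-Sham replicate 3, that of Pola1 without miKO-Sham replicate 1 and that of Pold1 without miKO-tFCI replicate 2. A gene called in a single genotype need not differ between them, which is tested by the interaction. All 10 microglial markers were called lower in this comparison, and 7 of 9 monocyte and macrophage, 6 of 7 border-associated macrophage, 7 of 7 endothelial, 6 of 7 astrocyte, 3 of 6 tested dendritic cell, 3 of 7 tested neutrophil and 3 of 5 tested oligodendrocyte markers higher. Of 4 tested neuron markers 2 were called higher and 1 lower, and of 4 tested T cell markers 1 was higher. The last astrocyte marker and 1 of 4 tested B cell markers were called lower. The B cell sum was 330 to 435 CPM in miKO-Sham and 152 to 157 CPM in miKO-tFCI. Their part in the replication genes was not tested.

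**Figure D2:**
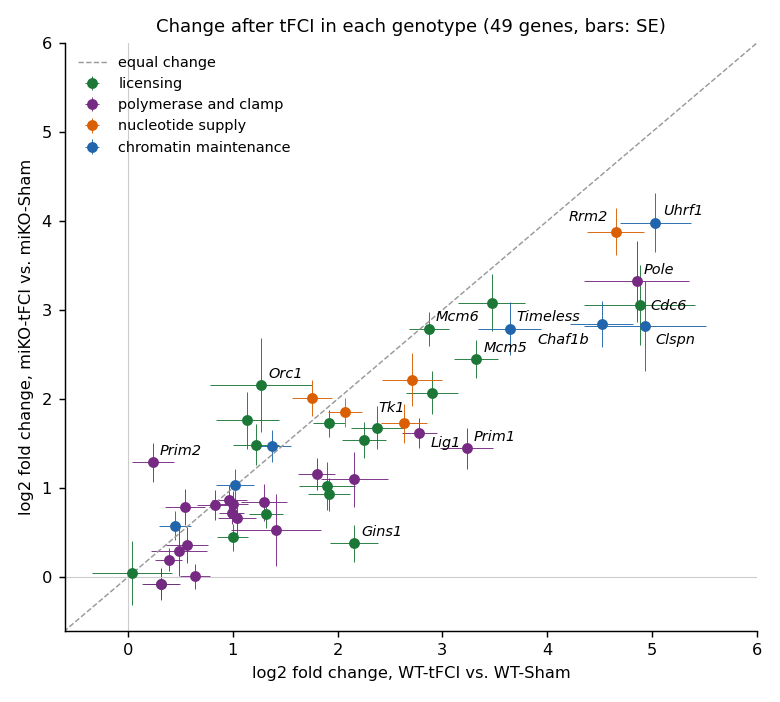
Log2 fold change after tFCI in WT mice (horizontal) and in miKO mice (vertical) for 49 of the 50 genes, coloured by step, with SE bars and a dashed line of equal change. Mcm10 is left out because it had at most 3 counts in every miKO-Sham library. Gins1, Prim1, Lig1 and Chaf1b, the genes with a called interaction, lie under the line, and Prim2 and Orc1 above it.

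Before stroke, miKO-Sham was compared with WT-Sham. Of the 50 genes, 12 were higher and 1 was lower in miKO-Sham by edgeR, where 15.4% of all genes tested were called, 8.58% higher and 6.8% lower. An unadjusted p under 0.05 was found for 23 of 50, against 30.6% of all genes, and the adjusted p alone gave 14 higher and 1 lower, against 9.94% and 8.12%. The median log2 fold change was 0.39 (1.31-fold), against 0.04 over all genes, with 0.27 in batch 1 and 0.35 in batch 2. In CPM, all 3 miKO-Sham libraries lay above all 3 WT-Sham libraries for 15 of the 50 genes and below them for 2. This held for 17% and 16.2% of all genes, so a lack of overlap is common in this comparison. The number called moved with single libraries. Without WT-Sham replicate 2 it was 5, since the calls of Cdc6, Cdt1, Mcm3, Mcm4, Rfc4, Pola1, Fen1 and Lig1 were lost, and when the other libraries were left out in turn it was 9 to 14, with 9 without miKO-Sham replicate 1 and 13 without miKO-Sham replicate 2, the closest pair. In the same libraries 4 of 10 microglial markers were called lower and 1 higher, 2 of 4 tested B cell markers lower, and in each other list tested at most 1 marker in either direction. The summed B cell level was 428 to 529 CPM in WT-Sham and 330 to 435 CPM in miKO-Sham, and the neutrophil sum was 49.5 to 815 CPM in WT-Sham and 336 to 367 CPM in miKO-Sham. Sums that did not overlap were those of T cells (24.2 to 40.6 CPM in WT-Sham and 5.97 to 7.3 in miKO-Sham), neurons (1.85 to 2.89 and 11.5 to 15.7), astrocytes (181 to 193 and 109 to 130), oligodendrocytes (192 to 221 and 150 to 190), endothelial cells (22.3 to 30.7 and 12.3 to 18.7) and dendritic cells (16.11 to 21.85 and 14.15 to 16.01). Their part in the replication genes was not tested.

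Gins1 and Prim1 were called higher under all 20 alternatives tried, and Chaf1b under the 19 in which it was tested. Chaf1b did not pass the filter of at least 10 counts in every library. Gins1, a subunit of the helicase complex, was at 4.81, 5.15 and 4.82 CPM in WT-Sham and 16.7, 15.5 and 16.1 CPM in miKO-Sham, a 3.29-fold difference (log2 fold change 1.72 ± 0.23 SE, edgeR adjusted p = 9.25e-05). Prim1, the primase catalytic subunit, was at 6.39, 8.46 and 6.53 CPM in miKO-Sham, 3.28-fold above WT-Sham (log2 fold change 1.71 ± 0.26 SE, edgeR adjusted p = 0.000296). Chaf1b was at 2.22, 2.22 and 2.95 CPM, 3.39-fold above WT-Sham (log2 fold change 1.76 ± 0.34 SE, edgeR adjusted p = 0.00203), on 16, 16 and 23 counts against 3, 10 and 7. For each of the 3 genes every miKO-Sham library was above every WT-Sham library. Gins1 lies at chr2:150905400-150931280 on the plus strand, Prim1 at chr10:128015168-128030037 on the plus strand and Chaf1b at chr16:93883901-93906115 on the plus strand (GRCm38, GENCODE M21), and these values are sums over all exons of each gene.

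Prim2, the other primase subunit, was the single gene called lower. It was at 4.72, 4.86 and 6.66 CPM in miKO-Sham against 12.3, 12.3 and 11.0 CPM in WT-Sham (log2 fold change -1.13 ± 0.22 SE, edgeR adjusted p = 0.00183), and its call held under every alternative. The groups did not overlap, and the difference was -1.33 in batch 1 and -1.0 in batch 2. So the subunits of primase, which act as a pair, differed between the genotypes in opposite directions in Sham libraries. Prim2 lies at chr1:33453810-33669795 on the minus strand.

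Each of the other 9 genes called higher lost its call under at least 1 alternative. Among licensing genes these were Cdc6, Cdt1, Mcm3 and Mcm4. Cdt1 was at 16.5, 12.9 and 15.2 CPM in miKO-Sham (log2 fold change 0.86 ± 0.2 SE, edgeR adjusted p = 0.00804), above all 3 WT-Sham libraries. Mcm3 was at 76.8, 75.7 and 82.6 CPM, also above all 3 (0.65 ± 0.16 SE on the log2 scale). Mcm4 was at 12.1, 9.43 and 15.0 CPM against 3.97, 7.51 and 9.75 CPM, and there the groups overlapped. Cdc6 was at 0.694, 0.832 and 2.69 CPM, from 5, 6 and 21 counts, and its fitted difference of 2.04 ± 0.62 SE is led by replicate 3. Without that library, without WT-Sham replicate 1 or without WT-Sham replicate 2, the call of Cdc6 was lost.

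Among polymerase and clamp genes, Rfc2, Rfc4, Pola1, Fen1 and Lig1 were called higher beside Prim1. Rfc2 was at 251.6, 232.8 and 319.1 CPM in miKO-Sham (log2 fold change 0.69 ± 0.14 SE, edgeR adjusted p = 0.0025), and the gene Lat2, which overlaps 15.1% of its exon bases on the other strand, was itself called higher by 0.91 ± 0.15 SE. Lig1 was at 12.6, 11.1 and 11.4 CPM, above all WT-Sham libraries (0.62 ± 0.18 SE). Fen1 was at 19.4, 18.7 and 17.3 CPM (0.6 ± 0.19 SE) and Rfc4 at 15.8, 16.2 and 11.0 CPM (0.73 ± 0.22 SE), both without overlap. Pola1 was at 4.72, 11.1 and 8.07 CPM, with overlap, and its difference was -0.09 in batch 1 and 1.52 in batch 2. Calls were lost as follows. Those of Pola1 and Fen1 were lost in 12 of 20 alternatives each, Pola1 with the replicate number as a block among them (edgeR adjusted p up to 0.222), those of Mcm4 and Rfc4 in 8, that of Lig1 in 7, that of Mcm3 in 5, that of Cdt1 in 2 (without WT-Sham replicate 2 or miKO-Sham replicate 1) and that of Rfc2 in 1 (without miKO-Sham replicate 3). In nucleotide supply 0 of 5 genes were called, with 2 of 5 at an unadjusted p under 0.05 (Rrm2 higher and Tyms lower), and the median log2 fold change was -0.01. Tyms was at a mean of 14.4 ± 1.54 CPM (SD, n = 3) in WT-Sham and 9.41 ± 2.5 CPM in miKO-Sham (log2 fold change -0.61 ± 0.2 SE, edgeR adjusted p = 0.0501).

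**Figure D3:**
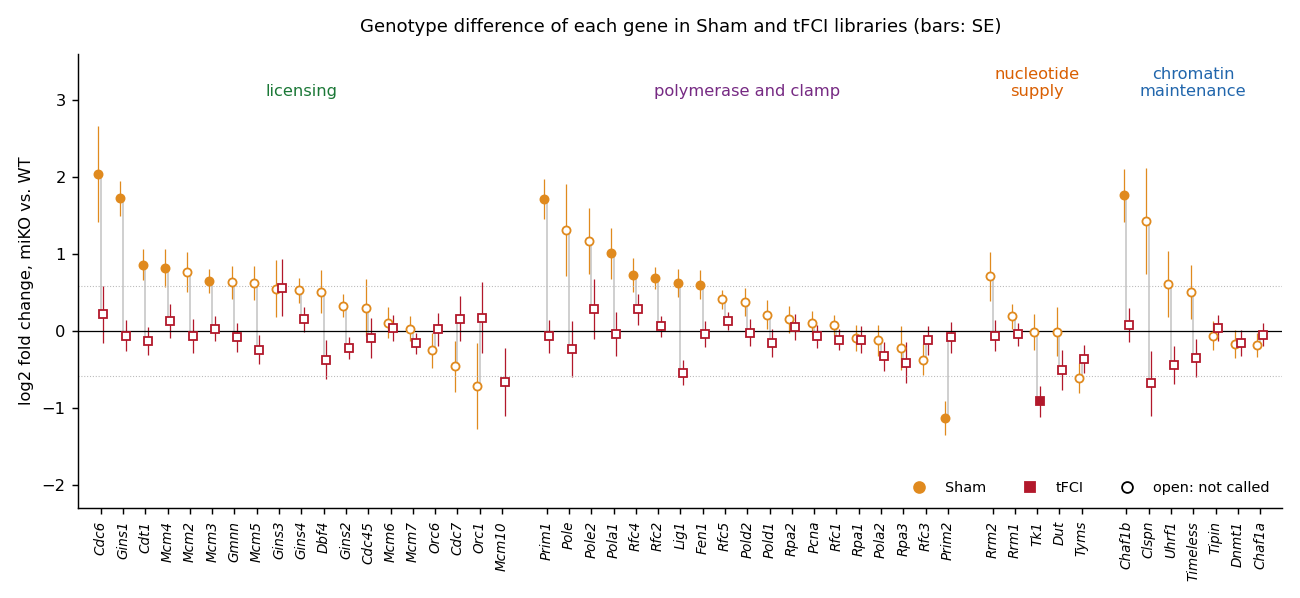
Log2 fold change of miKO against WT for each gene in Sham (orange circles) and in tFCI (red squares), with SE bars, filled where called, and dotted lines at 0.58 and -0.58. The Sham value of Mcm10 is left out because of its few counts. Gins1 goes from 1.72 in Sham to -0.06 in tFCI and Prim2 from -1.13 to -0.08, and Tk1 at -0.91 is the filled square.

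After stroke, miKO-tFCI was compared with WT-tFCI. Of the 50 genes, 1 was called lower and 0 higher by edgeR, where 8.79% of all genes tested were called, 4.71% lower and 4.08% higher. At an unadjusted p under 0.05 there were 2 of 50, against 25.9% of all genes, and DESeq2 called 1. On the adjusted p alone 2 were lower and 0 higher, against 5.4% and 4.5% of all genes. The median log2 fold change was -0.07, against 0.04 over all genes, with -0.09 in batch 1 and -0.08 in batch 2. The summed level of the 50 genes was 1688, 2100 and 2220 CPM in miKO-tFCI, of which replicates 2 and 3 lie within the range of the WT-tFCI libraries and replicate 1 below it. A p that misses the threshold does not show equal levels, so the intervals are given. The 95% interval of the log2 difference lay within 0.58 of 0 for 28 of the 50 genes and within 1 of 0 for 41, and the median distance from the estimate to a bound was 0.42. The intervals that reached past 1 in either direction, apart from that of Tk1, were those of Cdc6, Mcm10, Orc1, Gins3, Pole, Pole2, Dut and Clspn.

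Tk1, the salvage kinase for thymidine, was the gene called. It was at 36.5, 36.9 and 30.6 CPM in miKO-tFCI against 61.6, 75.6 and 57.4 CPM in WT-tFCI, with no overlap (log2 fold change -0.91 ± 0.2 SE, 95% interval -1.34 to -0.48, edgeR adjusted p = 0.011). The difference was -0.75 in batch 1 and -0.96 in batch 2. The call was lost without WT-tFCI replicate 2 or without miKO-tFCI replicate 3, with an edgeR adjusted p of up to 0.0826. In Sham the same gene was at 10.3, 11.9 and 9.09 CPM in miKO and did not differ beyond the spread (log2 fold change -0.01 ± 0.23 SE). Tk1 lies at chr11:117815526-117826092 on the minus strand, and 1.6% of its exon bases overlap Afmid on the other strand, which was at a mean of 4.85 CPM in the WT-tFCI libraries against 2.52 CPM in miKO-tFCI. Lig1 passed on the adjusted p alone, at 29.7, 39.8 and 39.3 CPM in miKO-tFCI against 47.3, 53.7 and 56.5 CPM in WT-tFCI (log2 fold change -0.54 ± 0.16 SE, edgeR adjusted p = 0.0418), again with no overlap.

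All 5 nucleotide supply genes were below 0 in this comparison, with a median log2 fold change of -0.36. Tyms was at 32.2, 40.7 and 40.2 CPM in miKO-tFCI against 49.8, 54.5 and 41.4 CPM in WT-tFCI (-0.36 ± 0.18 SE, edgeR adjusted p = 0.221), Dut at -0.5 ± 0.26 SE, and Rrm1 and Rrm2 at -0.04 ± 0.15 SE and -0.06 ± 0.2 SE. Of the 5, Tk1 alone passed the test. In CPM, all 3 miKO-tFCI libraries lay below all 3 WT-tFCI libraries for 6 genes (Mcm10, Rpa1, Lig1, Tk1, Tyms and Uhrf1) and above them for Rfc5, against 13.3% and 9.58% of all genes. Helicase subunits Mcm2 to Mcm7 were between -0.24 and 0.13. Pcna was at 113.9, 142.6 and 182.0 CPM in miKO-tFCI and Mcm5 at 67.0, 102.9 and 101.5 CPM, each overlapping the WT-tFCI libraries. The genes that were far apart in Sham were close here. Gins1 was at 17.7, 26.9 and 21.9 CPM in the WT-tFCI libraries against 13.6, 27.5 and 23.6 CPM in miKO-tFCI, Prim1 at 15.1, 20.1 and 23.7 CPM and Chaf1b at 12.1, 20.6 and 21.6 CPM in miKO-tFCI, and Prim2 at 11.6, 14.7 and 13.6 CPM, and all 4 overlapped between the genotypes.

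Genes of mitosis are given beside them because they mark the later part of the cell cycle. Of 36 such genes, 35 rose after tFCI in WT mice and 36 in miKO mice, against 20.9% and 21.9% of all genes. Their median log2 fold changes were 4.1 and 2.94. Between the genotypes after tFCI, 18 of the 36 were called lower in miKO-tFCI and 0 higher, against 4.71% and 4.08% of all genes. Their median was -0.73, against 0.04 over all genes. The 50 replication and nucleotide supply genes had 1 lower and a median of -0.07. The proliferation marker Mki67 was at 110, 157 and 151 CPM in the WT-tFCI libraries against 50.8, 69.4 and 55.6 CPM in miKO-tFCI (log2 fold change -1.24 ± 0.16 SE, edgeR adjusted p = 0.000241), and the kinetochore gene Cenpf was at -1.57 ± 0.21 SE. Summed over the list, mitotic genes were at 1405, 1776 and 1716 CPM in the WT-tFCI libraries against 906, 947.7 and 1050 CPM in miKO-tFCI, without overlap. Whether the lists differ from each other was not tested. In these libraries 5 of 10 microglial markers were called lower in miKO-tFCI, and 5 of 7 tested neutrophil, 3 of 9 tested monocyte and macrophage and 3 of 7 border-associated macrophage markers were called higher, and 2 of 4 tested B cell markers lower. Of 7 astrocyte markers 2 were called higher and 1 lower, and their sum was 169 to 280 CPM in WT-tFCI and 201 to 567 CPM in miKO-tFCI. Of 6 tested dendritic cell and 5 tested oligodendrocyte markers 1 each was called higher. Of the endothelial, neuron and T cell markers 0 were called. The B cell sum was 269 to 338 CPM in WT-tFCI and 152 to 157 in miKO-tFCI, without overlap. The neutrophil sum was 148 to 212 CPM in the WT-tFCI libraries against 671 to 971 CPM in miKO-tFCI, the monocyte and macrophage sum 365 to 656 and 434 to 954 CPM, and the border-associated macrophage sum 165 to 283 and 296 to 824 CPM. Their part in Tk1, Lig1 or the mitotic genes was not tested.

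**Figure D4:**
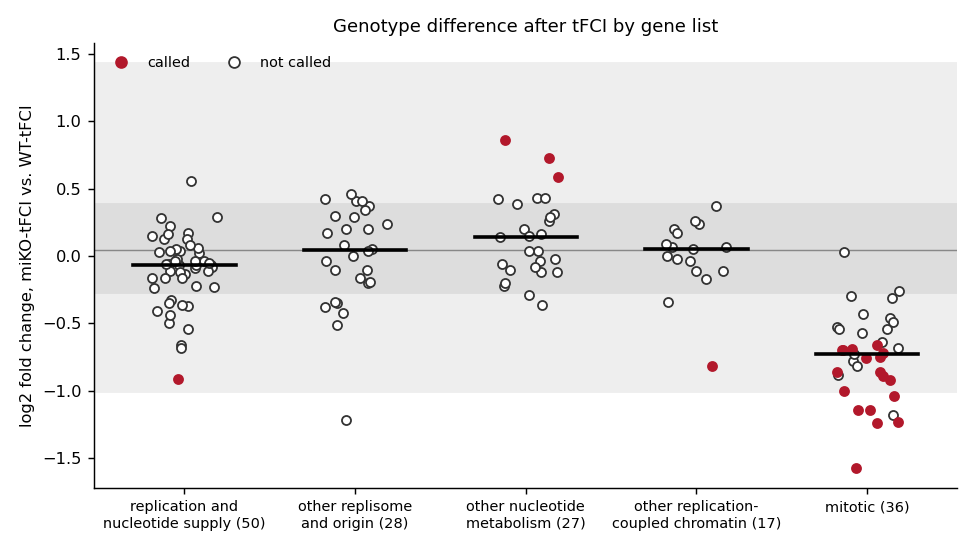
Log2 fold change of miKO-tFCI against WT-tFCI for the replication and nucleotide supply genes, other genes of the pathway and mitotic genes, each point a gene, filled where called, with the list median as a bar. The light and dark bands hold the middle of all genes tested, from the 5th to the 95th percentile (-1.01 to 1.43) and from the 25th to the 75th (-0.27 to 0.39). The median of the mitotic list is -0.73 and that of the replication and nucleotide supply list -0.07.

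Whether the change after tFCI differed between the genotypes was tested by the interaction of genotype and surgery. Of the 50 genes, 4 had a called interaction, all negative (a smaller rise in miKO), where 3.82% of all genes tested were called, 2.57% lower. An unadjusted p under 0.05 was found for 19 of 50, against 17.8% of all genes. The median over the 50 genes was -0.43, against -0.02 over all genes, with -0.31 in batch 1 and -0.46 in batch 2. The 4 genes were Gins1 (-1.78 ± 0.31 SE on the log2 scale), Prim1 (-1.78 ± 0.34 SE), Chaf1b (-1.68 ± 0.41 SE) and Lig1 (-1.15 ± 0.24 SE), with edgeR adjusted p of 0.00453, 0.00804, 0.033 and 0.0137. Gins1 rose 4.46-fold in WT and was at 1.3-fold in miKO, where the groups overlapped. Prim1 rose 9.4-fold and 2.73-fold, and Chaf1b 22.9-fold and 7.15-fold. For these 3 genes the miKO libraries were higher in Sham and overlapped with WT in tFCI, so the smaller rise came with a higher start. Lig1 rose 6.85-fold and 3.08-fold. It was called higher in miKO-Sham, and in miKO-tFCI it was lower on the adjusted p alone and not called. Prim2 had the opposite sign, 1.05 ± 0.3 SE, and did not pass (edgeR adjusted p = 0.0657). The interactions of Gins1 and Prim1 were called under every alternative. That of Chaf1b was lost in 12 of 18 alternatives, on leaving out any library but WT-Sham replicate 2 and miKO-Sham replicate 2 among them (edgeR adjusted p up to 0.16), and that of Lig1 without WT-Sham replicate 2 or 3 or WT-tFCI replicate 2 or 3 (up to 0.0613).

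**Figure D5:**
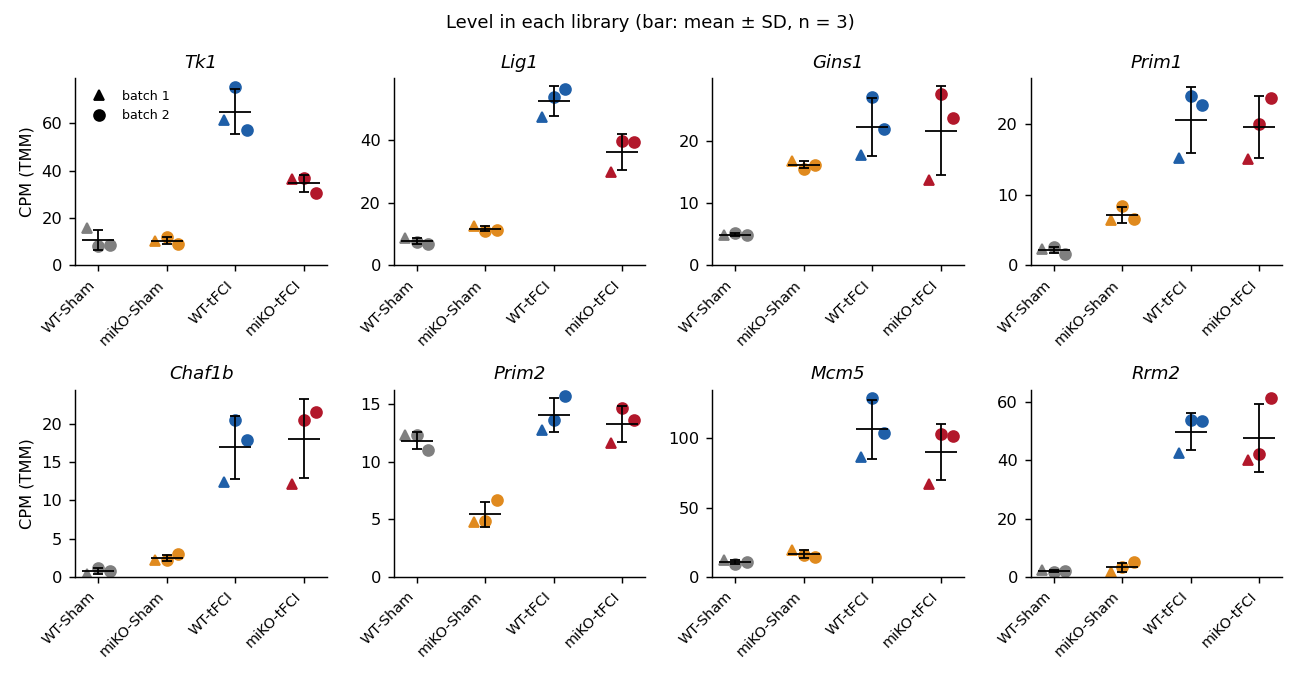
CPM in each library of 8 genes, with triangles for batch 1, circles for batch 2 and bars for the mean ± SD of 3 libraries. Gins1 is near 5 CPM in WT-Sham and 16 CPM in miKO-Sham while both tFCI groups overlap, Prim2 is lower in miKO-Sham alone, and Tk1 is lower in miKO-tFCI.

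Other genes of the same pathways were read from lists chosen by function. Of 28 tested replisome and origin genes outside the 50, 14 rose and 0 fell after tFCI in WT mice (20.9% and 11.7% of all genes) and 9 rose and 1 fell, Pold4, in miKO mice (21.9% and 13.9%). By edgeR 0 were called between the genotypes after tFCI, against 8.79% of all genes, with 3 of 28 at an unadjusted p under 0.05, against 25.9%. Between miKO-Sham and WT-Sham 1 of the 28 was called higher and 1 lower, 7.14% of the 28 against 15.4% of all genes. In Sham, Dna2, a nuclease and helicase of Okazaki fragment processing, was at 1.2, 1.12 and 2.46 CPM in WT and 13.9, 13.3 and 9.61 CPM in miKO (log2 fold change 2.95 ± 0.34 SE, edgeR adjusted p = 2.13e-05), and at 15.0, 17.7 and 24.9 CPM in the WT-tFCI libraries against 10.0, 18.1 and 17.4 CPM in miKO-tFCI. Its interaction was called, at -3.3 ± 0.43 SE (edgeR adjusted p = 0.00068), and the genotypes overlapped after tFCI. Mms22l, a fork repair gene, was lower in miKO-Sham, by -1.01 ± 0.27 SE.

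Of 27 tested genes of nucleotide metabolism outside the 50, 13 rose and 3 fell after tFCI in WT mice (20.9% and 11.7% of all genes). In miKO-Sham 4 were called higher and 1 lower, 18.5% of the 27 against 15.4% of all genes. Gart, of purine synthesis, was at 37.7, 45.3 and 46.6 CPM in WT-Sham and 114, 116 and 90.3 CPM in miKO-Sham (log2 fold change 1.31 ± 0.16 SE, edgeR adjusted p = 3.09e-05). Mthfd2, of mitochondrial folate metabolism, was higher by 1.02 ± 0.18 SE. Ctps2, a CTP synthase, was lower by -1.04 ± 0.17 SE. After tFCI 3 of the 27 were called higher in miKO-tFCI and 0 lower by edgeR, against 4.08% and 4.71% of all genes. They were Samhd1, which degrades deoxynucleotides (0.59 ± 0.15 SE), the CTP synthase Ctps (0.73 ± 0.2 SE) and Impdh1 of guanine nucleotide synthesis (0.86 ± 0.24 SE).

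Of 17 tested genes of replication-coupled chromatin outside the 50, 11 rose and 1 fell after tFCI in WT mice (20.9% and 11.7% of all genes). In miKO-Sham 1 was called higher and 2 lower, 17.6% of the 17 against 15.4% of all genes. Between the genotypes after tFCI 0 were called higher and 1 lower, 5.88% against 8.79%. The histone chaperone Asf1b was at 5.53, 4.03 and 3.8 CPM in WT-Sham and 6.94, 9.71 and 9.35 CPM in miKO-Sham (log2 fold change 0.96 ± 0.22 SE, edgeR adjusted p = 0.00742), and its interaction was called at -1.3 ± 0.29 SE. Ezh2, the methylase of histone H3 in Polycomb silencing, was lower in miKO in Sham (-0.74 ± 0.24 SE) and in tFCI (-0.82 ± 0.22 SE, edgeR adjusted p = 0.027). Among 19 tested E2F and pocket protein regulators, 9 rose and 3 fell after tFCI in WT mice (20.9% and 11.7% of all genes). In miKO mice 9 rose and 1 fell (21.9% and 13.9%). E2f1 went from 1.44, 1.57 and 3.18 CPM in WT-Sham to 38.2, 47.1 and 51.3 CPM in WT-tFCI, and was at 2.08, 4.44 and 5.12 CPM in miKO-Sham and 28.7, 43.2 and 38.4 CPM in miKO-tFCI. In miKO-Sham 2 of the 19 were called higher and 0 lower, 10.5% of the 19 against 15.4% of all genes (8.58% higher). The median of the list was -0.05. The 2 genes were E2f1 and E2f2, both activators (0.88 ± 0.28 SE and 1.07 ± 0.29 SE, edgeR adjusted p = 0.0394 and 0.0201), with overlap between the groups for E2f1. After tFCI 0 of the 19 were called between the genotypes, against 8.79% of all genes, with 6 of 19 at an unadjusted p under 0.05, against 25.9%. The interaction of E2f2 was called at -1.65 ± 0.39 SE.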

How the data were processed

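The authors deposited whole-number counts per gene for each library, with no normalization. The submitters' processing notes name FastQC 0.11.9, Trim Galore, HISAT2 2.2.1, SAMtools, HTSeq 1.99.2 and mm10/GRCm38.p6. Libraries were made with SMART-Seq v4 from 10 ng of RNA, and the strand setting of the counting is not given in the sources used here. Rows that name no gene were left out, and 30.7 to 38.5% of counted reads were on genes.

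Counts as deposited were tested with edgeR 4.0.16 (R 4.3.3) by the quasi-likelihood test after filterByExpr and TMM, in a fit of all 12 libraries with group and batch as terms and Benjamini-Hochberg adjustment over all 16451 genes tested. CPM is the count divided by the TMM-scaled total on genes. Exon lengths, loci and overlaps come from GENCODE M21, and promoters from RefSeq. The labels call the 3 libraries of a group replicates, each a pool, so the spread is between pools. Members and gene lists were chosen with earlier results of these data known. Genes given per library were those called between genotypes or in the interaction, and in each step the gene with the highest level per kilobase and that with the smallest p after tFCI in WT mice. Same-numbered WT-tFCI and miKO-tFCI libraries deviated together (correlations 0.67, 0.33 and 0.32), as did crossed pairs within batch 2 (0.33 and 0.39), and in the other comparisons not every pair passed 0.1. The script was tested on simulated data for miKO-tFCI against WT-tFCI, with every group set to WT-Sham levels before the changes were put in. It called 44 of 100 genes changed 2-fold, 9 of 100 changed 1.5-fold and 3 others, with 14533 genes left by the low-count filter. The changed genes were drawn before that filter, so any that it removed count as missed. Detection at the levels of the tFCI libraries was not simulated.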

Additional observations from a re-analysis of the deposited data

Results flagged for a closer look

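Gins1, Prim1, Chaf1b and Lig1 were singled out because the genotype difference in Sham differed from that in tFCI by the interaction test. The interaction was -1.78 for Gins1, -1.78 for Prim1, -1.68 for Chaf1b and -1.15 for Lig1 on the log2 scale. It was negative in both batches, at -2.12 and -1.55 for Gins1, -1.42 and -1.83 for Prim1, -2.08 and -1.16 for Chaf1b and -1.2 and -1.12 for Lig1. The cause was not tested.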

How the results depend on the processing

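The rise after tFCI held in number, with 38 to 42 genes called in WT and 38 to 40 in miKO when each library was left out, and 40 to 44 and 39 to 41 under the other alternatives that kept all 50. With at least 10 counts in every library they were 34 and 32 of 42, and among the 37 genes without exon overlap on the other strand, an alternative chosen after seeing the data, 29 and 29. For miKO-Sham against WT-Sham the count of 13 became 8 without the batch term and 8 with the compared groups alone, and was 5 to 14 when a library was left out. For miKO-tFCI against WT-tFCI the count of 1 became 2 with any fold, 2 with the compared groups alone and 0 among those 37 genes, and was 0 to 2 when a library was left out (0 without WT-tFCI replicate 2 or miKO-tFCI replicate 3, 2 without WT-tFCI replicate 1). For the interaction the count of 4 became 7 with DESeq2 1.42.0 (1 higher) and 7 with no filter, and was 2 to 6 when a library was left out (2 without WT-tFCI replicate 2 or 3). A fit of the compared groups alone was not run for the interaction. With the replicate block the counts were 40, 39, 12, 1 and 4 in the order of the report, and Pola1 in Sham lost its call. Of 4905 values of single genes under alternatives, 4751 kept their call or lack of one, 89 lost the call, 65 gained it, and 0 called values changed sign, while values that were not called could. Depth limits the 8 genes with fewer than 10 counts in a Sham library.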
